A study of Macaca fascicularis with 6 samples.

Results

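Genes of the pulmonary surfactant system were followed across the cells of the cynomolgus monkey lung. The members were SFTPC, SFTPB, SFTPD, SFTA2, SLC34A2, NAPSA, PGC, LAMP3 and ABCA3, and they were chosen by name, so that each of the 9 members matched 1 row among the 28623 genes counted. The lungs came from 6 male cynomolgus monkeys aged 3 to 5 years, each profiled as 1 droplet-based library. The 3 monkeys of the asthma group (replicates 8, 10 and 11) were sensitized with A. suum antigen at 1 mg/mL and challenged with it at 10 mg/mL, the 3 monkeys of the control group (replicates 1, 2 and 3) were given saline, and all lungs were taken in week 11. Since each library came from a different monkey, the p-values measure the spread between animals.

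Pulmonary surfactant is a film of lipid and protein that lowers surface tension in the alveoli. It is made by alveolar type 2 (AT2) cells, stored in lamellar bodies and released into the airspace, where alveolar macrophages and AT2 cells clear it. SFTPC and SFTPB encode the hydrophobic proteins that spread the lipid film, SFTPD encodes a collectin that binds microbes, and SFTA2 encodes a small secreted protein of the surfactant. SLC34A2 encodes the phosphate transporter of the apical membrane, NAPSA the aspartic protease that processes pro-SFTPB and PGC a second aspartic protease. ABCA3 encodes the lipid transporter of the lamellar body membrane and LAMP3 a glycoprotein of the same membrane.

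Each RNA molecule was tagged at capture with a random barcode, the unique molecular identifier (UMI), and counted once, at its 3′ end. The 6 libraries held 35133 barcodes, and 24235 of them passed the filters on genes, UMIs and mitochondrial share. Control replicates 1, 2 and 3 kept 4339, 3200 and 3902 cells from totals of 40556102, 33210436 and 32240293 UMIs. Asthma replicates 8, 10 and 11 kept 4136, 4620 and 4038 cells from totals of 41184329, 41489879 and 29014556 UMIs. Median UMIs per cell lay between 3835 and 5048.5, and any 2 libraries shared between 1 and 11 cell barcodes. Levels are given below in counts per 1e+06 UMIs (CPM) of a class of cells in a library, and they compare classes and animals for 1 gene at a time, since the 9 genes were not ranked against each other.

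Cells were clustered and named from marker lists that held none of the 9 members, and the members were kept out of the clustering, so that their levels took no part in the choice of the cells. Of the 24235 cells, 917 (3.78%) were epithelial-like, and 361 of these (1.49% of all cells) were AT2-like. The AT2-like cells came to 89, 23 and 11 cells in control replicates 1, 2 and 3 and to 42, 84 and 112 cells in asthma replicates 8, 10 and 11. The name rests on a list of 19 AT2 markers other than the members, so that their levels describe the naming and are no separate check of it. Of the 17 that were measured, 14 were higher in AT2-like than in other epithelial-like cells, 12 of them by at least 1 on the log2 scale. PLA2G1B, a secreted phospholipase, stood at 3440 CPM, CTSH, a protease of pro-SFTPC and pro-SFTPB processing, at 1732 CPM, LPCAT1, an enzyme of surfactant phosphatidylcholine synthesis, at 957 CPM, and HHIP at 547 CPM. DMBT1 was at 0 and CEBPA at 0.258 CPM in these cells. ALPL, also on the list, went the other way, at 0.258 CPM in AT2-like, 97.5 CPM in club-like and 49.7 CPM in basal-like cells. SFTPA1 and SFTPA2 were not analysed here. Names end in -like because they were rebuilt from markers, and a difference from the study's own classes may come from that.

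SFTPC was counted 1186358 times over all barcodes, SFTPD 53794 times, SLC34A2 26108 times, PGC 21917 times, SFTA2 20460 times, LAMP3 11498 times, SFTPB 10142 times, NAPSA 6320 times and ABCA3 3219 times. The 361 AT2-like cells, 1.49% of the cells, held the larger part of the UMIs of every member among the cells that passed. Their share was 90.3% of the PGC UMIs, 82.6% of SFTPC, 80.1% of NAPSA, 78.4% of SFTPD, 78.2% of SLC34A2, 75.7% of LAMP3, 71.6% of SFTA2, 68.3% of SFTPB and 53.0% of ABCA3. The remainder differed from gene to gene. Club-like cells, which line the small airways, held 22.7% of the SFTPB UMIs and 18.5% of the SFTA2 UMIs but 0.154% of the PGC UMIs, and the named immune-like classes together held 15.8% of the ABCA3 UMIs but between 0.903% and 2.86% of the UMIs of the other members. A further 8.09% of the LAMP3 UMIs lay in unnamed cells, which are described with the immune cells below. A further 8.55% of the SFTPC UMIs lay in sub-clusters left out as mixed, most of them in 107 epithelial cells that carried markers of other classes as well.

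The mean SFTPC level in AT2-like cells was 230328 ± 17066.5 CPM (SD, n = 6 libraries), with 247835, 221783 and 213161 CPM in control replicates 1, 2 and 3 and 232391, 213917 and 252878 CPM in asthma replicates 8, 10 and 11. The highest of the 6 libraries was an asthma library and the lowest a control library, and the ranges of the groups overlapped. The other secreted products averaged 10249 ± 1512 CPM for SFTPD, 3016 ± 817 CPM for SFTA2 and 1378 ± 431 CPM for SFTPB (SD, n = 6). Among the proteins that serve the cell itself, SLC34A2 averaged 4723 ± 396 CPM, NAPSA 1127 ± 277 CPM, LAMP3 1987 ± 399 CPM and ABCA3 322 ± 87.3 CPM. PGC averaged 3698 CPM with an SD of 3073 CPM, the widest spread of the 9 members relative to its mean.

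**Figure D1:**
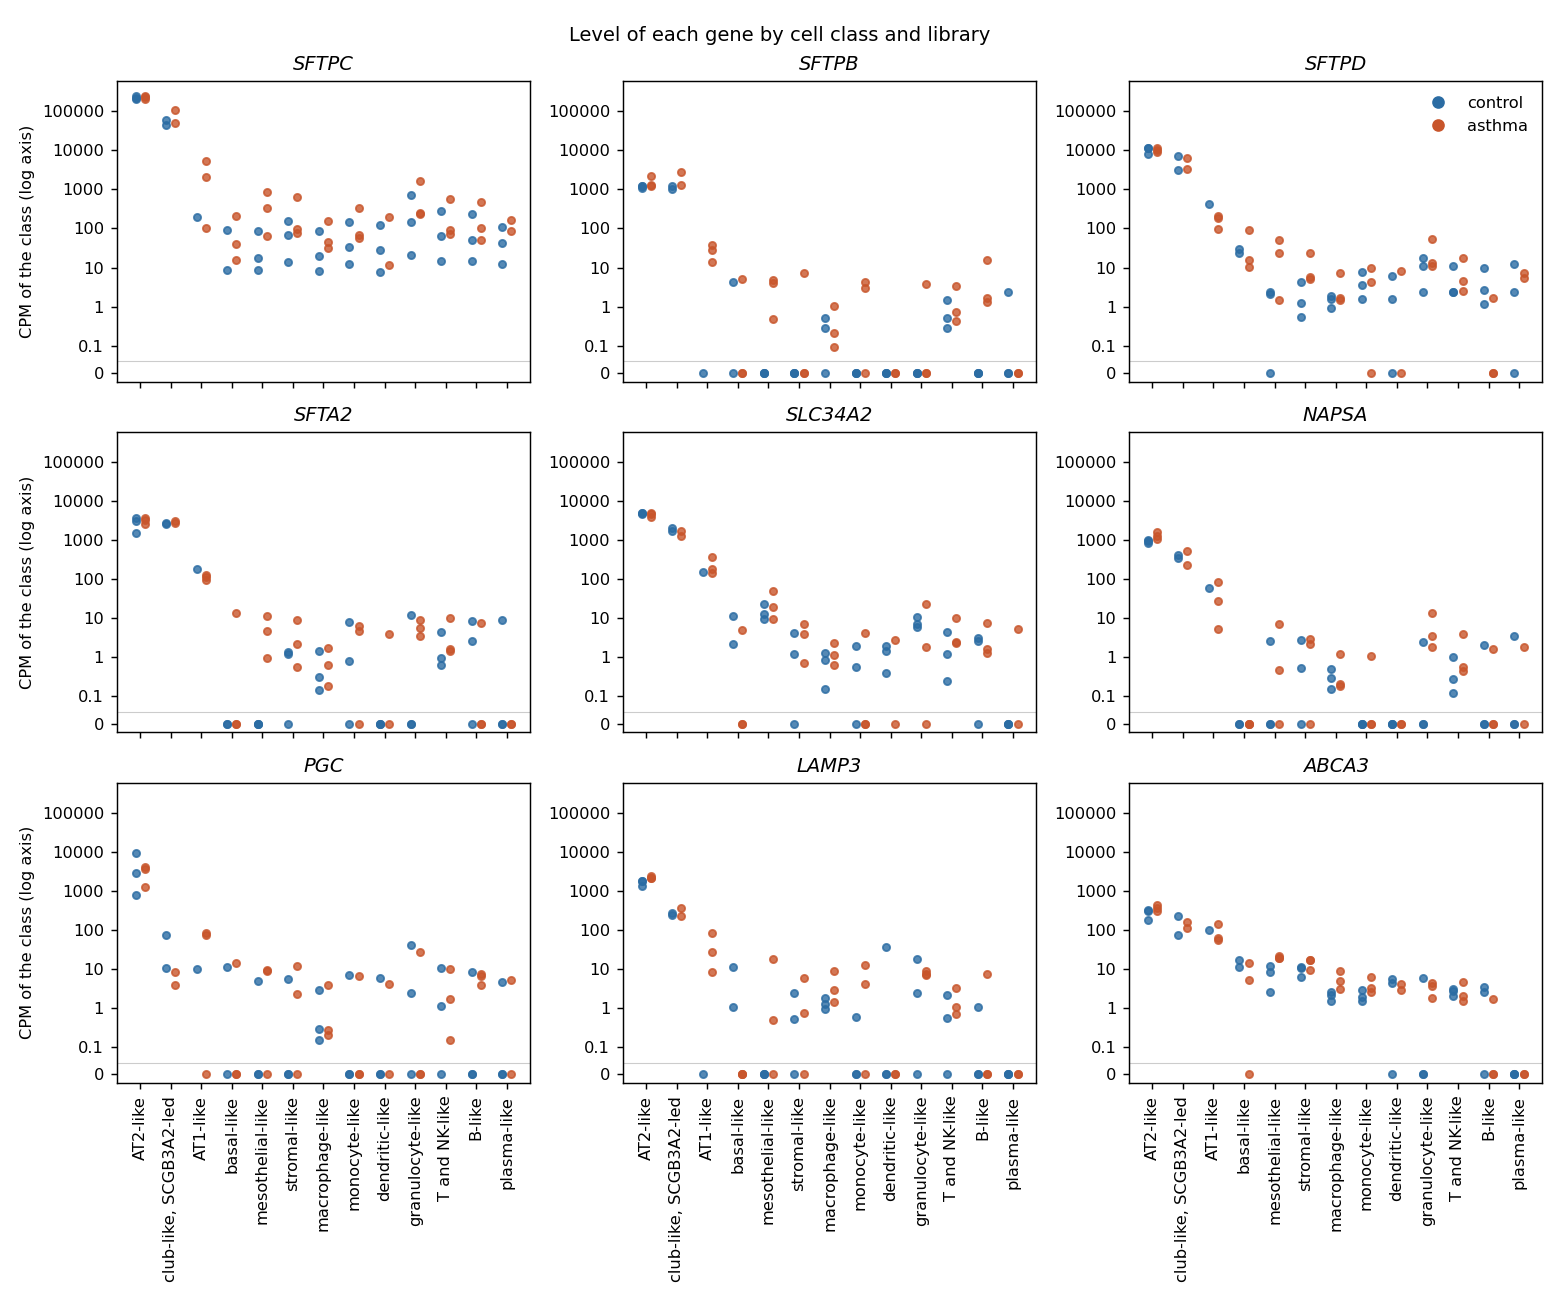
Level of each of the 9 members in each class of cells, 1 panel per gene, in CPM of the summed UMIs of a class and library on a log axis; each point is a library with at least 10 cells of the class, coloured by group, and libraries at 0 are drawn at the bottom below the grey line. AT2-like cells lead in 8 of the panels, club-like cells led by SCGB3A2 sit beside them for SFTPB and SFTA2 and far below them for PGC, and ABCA3 is above 0 in all 6 libraries of stromal-like, mesothelial-like, macrophage-like, monocyte-like and T and NK-like cells but at 0 in some or all plotted libraries of the other immune classes.

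Behind the AT2-like cells, for all members but SFTPB and PGC, came a group of club-like cells in 5 libraries. Their leading gene was SCGB3A2, a secretoglobin of the distal airways, and they numbered 94. In the 4 libraries with at least 10 of them, SFTPC averaged 66322.6 ± 28965.5 CPM, SFTPD 5010 ± 2039 CPM, SLC34A2 1709 ± 345 CPM, NAPSA 385 ± 130 CPM, LAMP3 277 ± 62.2 CPM and ABCA3 143 ± 68.1 CPM (SD, n = 4). PGC averaged 24.05 ± 32.96 CPM. For SFTPC, SFTPD, SLC34A2, NAPSA, PGC and LAMP3 the highest of these libraries lay below the lowest AT2-like value. SFTA2 stood at 2792 ± 218 CPM and SFTPB at 1621 ± 824 CPM, both overlapping the AT2-like cells, as ABCA3 did, and SFTPB was the one member whose highest class mean was not that of AT2-like cells. Within a library, SFTPB in AT2-like cells was 0.789 to 1.01 times its level in these club-like cells, SFTA2 0.611 to 1.38 times and LAMP3 5.98 to 9.92 times.

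AT1-like cells, the thin gas-exchange cells marked by AGER, carried much lower levels of every member than AT2-like cells. SFTPC averaged 1959 CPM, SFTPD 228 ± 135 CPM, SLC34A2 211 ± 105 CPM, SFTA2 130 ± 38.0 CPM and ABCA3 89.6 ± 39.2 CPM over 4 libraries (SD), and SFTPC ranged from 100 to 5421 CPM among them. A single AT1-like cell held 967 of the 2091 SFTPC UMIs of the class. PGC averaged 42.7 ± 43.7 CPM in AT1-like cells, above its mean in the SCGB3A2-led club-like cells. A single AT1-like cell held 25 of the 43 PGC UMIs. Within a library, ABCA3 was 3.15 to 6.64 times lower in AT1-like than in AT2-like cells and SLC34A2 12.7 to 30.8 times lower. Basal-like cells, the KRT5-positive stem cells of the airway, held no NAPSA UMI in 5 libraries, and SFTPD averaged 33.9 ± 32.8 CPM there. Ciliated-like cells numbered 18, with fewer than 10 in every library, and SLC34A2 stood at 757 and 497 CPM in those of control replicates 1 and 3 and at 148 and 404 CPM in those of asthma replicates 8 and 10.

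Single AT2-like cells varied in how much of their RNA was surfactant RNA. SFTPC took a median of 25.4%, 21.6% and 22.6% of a cell's UMIs in the control libraries (replicates 1, 2 and 3). The asthma medians (replicates 8, 10 and 11) were 22.8%, 20.9% and 22.9%. Single cells ran from 3.65% to 45.4%, a wider range than that of the library medians. Of the 361 cells, 286 (79.2%) had at least 1 UMI of all 9 members, 353 (97.8%) had at least 7 members and no cell had fewer than 5. SFTPC, SFTPD and SLC34A2 were seen in all 361 cells. ABCA3, counted in few UMIs per cell, was seen in 318 of them (88.1%) and PGC in 326 (90.3%).

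PGC was the member that separated the animals. Its median over the AT2-like cells of a library was 8566, 1143 and 109 CPM in control replicates 1, 2 and 3 and 2208, 529 and 2830 CPM in asthma replicates 8, 10 and 11. It was detected in 97.8%, 91.3% and 63.6% of the control cells and in 97.6%, 81.0% and 91.1% of the asthma cells of the same libraries. Both groups therefore held animals with high and low PGC, and the highest and the lowest of the 6 libraries were both controls.

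Across cells the members were loosely tied to each other. For the 5 libraries with at least 20 AT2-like cells (350 cells), Spearman's rho between the CPM values of 2 members was computed for all 36 pairs, and the median rho over libraries ranged from -0.172 to 0.396 with a middle value of 0.0818. Only 8 of the 36 pairs were positive in all 5 libraries. The highest medians were those of SFTPC with PGC (0.396), SLC34A2 with LAMP3 (0.383, from 0.213 to 0.439) and SFTPD with NAPSA (0.332), and the lowest was that of SFTPB with SFTA2 (-0.172, negative in each of the 5 libraries). These values share the cells, the depth of each cell and the common denominator, in which SFTPC alone is a large part, and are given as a description.

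The AT2-like cells fell into 2 sub-clusters of 285 and 76 cells. The smaller one, led by BMP1, CCDC141, ENPEP and LRRK2, had a median of 5985 UMIs against 12108 in the larger one. Of its 76 cells 49 came from asthma replicate 11, so levels are given by library, for the 4 libraries with at least 5 of its cells (control replicate 1 and asthma replicates 8, 10 and 11). SFTPB stood at 2371, 1595, 1475 and 2878 CPM there against 1027, 1243, 1205 and 1965 CPM in the larger one. ABCA3 stood at 371, 373, 771 and 788 CPM against 319, 304, 328 and 295 CPM. Both were thus higher in the smaller sub-cluster in each of the 4 libraries, as were NAPSA and SLC34A2. Control replicate 1 had 5 cells there and asthma replicates 8 and 10 had 9 and 10, so their values rest on few UMIs. SFTA2 was lower there in each of them, at 1853, 3072, 2392 and 2931 CPM against 3781, 3292, 2695 and 4093 CPM. LAMP3 (1408 against 1845 CPM) and PGC (6744 against 9429 CPM) were lower there in control replicate 1. In asthma replicates 8, 10 and 11 both were higher there, LAMP3 at 2848, 3681 and 2625 CPM against 2442, 2057 and 2035 CPM and PGC at 6933, 1914 and 4933 CPM against 3184, 1236 and 3887 CPM. These levels are a description, since the sub-clusters come from the same cells. The smaller sub-cluster made up 5.62%, 13.04% and 0% of the AT2-like cells of control replicates 1, 2 and 3 and 21.4%, 11.9% and 43.8% of those of asthma replicates 8, 10 and 11. Its share was the largest in asthma replicate 11, and the ranges of the groups overlapped.

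The SCGB3A2-led club-like cells did not share 1 level of SFTPC. Over the 94 cells, SFTPC took between 0% and 28.4% of a cell's UMIs: 39 cells were at 5% or more, 32 were under 0.1% and 23 lay between, and each of the 5 libraries held cells of all 3 kinds. Both bounds were chosen after the values were seen, and they divide a range, not cell types. From the cells at 5% or more through those between to those under 0.1%, SLC34A2 stood at 2575, 1853 and 707 CPM, NAPSA at 636, 287 and 145 CPM and LAMP3 at 577, 172 and 74.8 CPM. Among the 39 cells at 5% or more, the 26 with SCGB3A2 at 1% or more of their UMIs stood lower, at 359 CPM of LAMP3, 579 CPM of NAPSA and 2087 CPM of SLC34A2. SFTPB stood at 1939, 1448 and 1218 CPM and SFTA2 at 3175, 3207 and 2113 CPM, so that cells with almost no SFTPC still held these 2 genes near their AT2-like levels.

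PGC was scarce beside SFTPC in the sum of these cells, and 7 of the 94 held a UMI of it. The 94 cells held 31 PGC UMIs beside 77154 SFTPC UMIs, whereas the ratio of the AT2-like cells of the same libraries would give 1417 (a ratio of 0.0219, and 0.00948 without control replicate 1, which held 25 of the 31). For SFTPB the same reckoning gave 1859 UMIs against 498, for SFTA2 3330 against 1040 and for LAMP3 354 against 677. In 26 of the cells, SFTPC took at least 5% and SCGB3A2 at least 1% of the UMIs. These 26 cells held 44952 SFTPC UMIs and 0 PGC UMIs, where the AT2-like ratio would give 830, and a count of 0 allows up to 9.05 CPM of PGC (3 UMIs, all 26 cells together). All 28 PGC UMIs of the 39 cells with SFTPC at 5% or more lay in 5 of the 13 cells with SCGB3A2 under 1%. The SCGB3A2 bound thus left out each of the 39 that had PGC, so the count of 0 describes the cells chosen and is no test. SCGB3A2 was counted in 32 of the 39, and whether all 94 cells are of 1 type was not tested. None of the 26 was among the cells with the highest doublet scores.

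**Figure D2:**
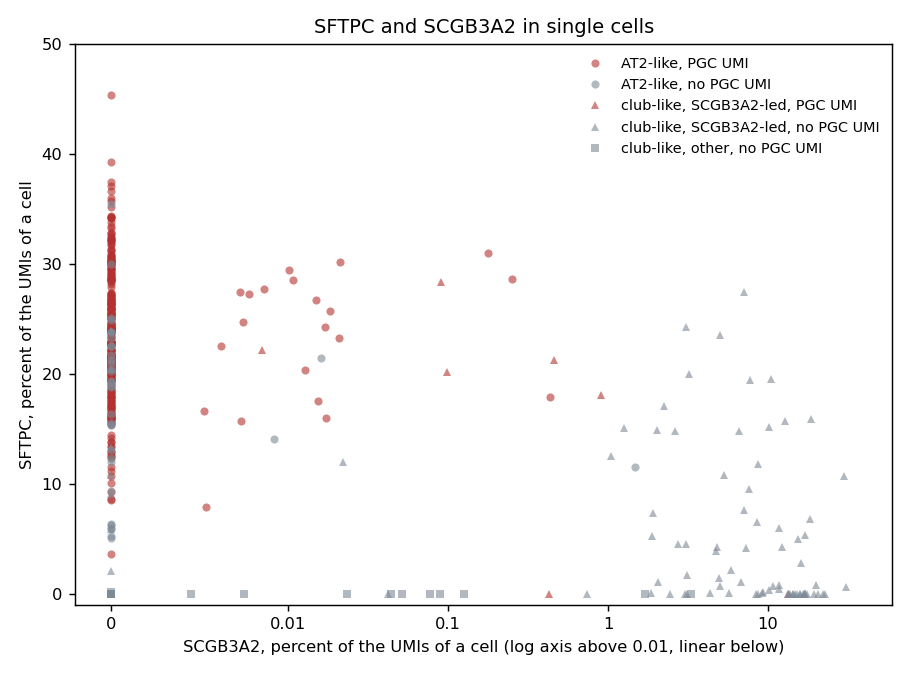
Single AT2-like cells and SCGB3A2-led club-like cells by the percent of their UMIs that are SCGB3A2 (horizontal, log axis above 0.01, linear below) and SFTPC (vertical, linear); each symbol is a cell, its shape gives the class, squares being the other club-like cells, and red marks a cell with a PGC UMI and grey one without. Club-like cells spread along the SFTPC axis from 0% to 28.4%. The 26 cells with SFTPC at 5% or more and SCGB3A2 at 1% or more hold no PGC UMI. Of the 13 with SFTPC at 5% or more and SCGB3A2 under 1%, 5 hold PGC UMIs.

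The question of the design was whether the members differed between the asthma and control groups, and within AT2-like cells none of them passed the test. The edgeR quasi-likelihood test with Benjamini-Hochberg adjustment over 6162 genes called 0 of the 9 members, against 0.0162% of all genes tested (1 gene, ENSMFAG00000030611, higher in asthma by 3.82 ± 0.52 on the log2 scale, adjusted p = 0.0340). At an unadjusted p under 0.05 there was 1 member, NAPSA, against 5.03% of all genes, and DESeq2 called none of the members either. The median log2 change of the members was 0.19 and that of all genes 0.02. All 9 members passed the filter on low counts.

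The protease NAPSA, in TMM-normalised CPM, stood at 1079, 924 and 870 in control replicates 1, 2 and 3 and at 1695, 1102 and 1318 in asthma replicates 8, 10 and 11. Every asthma library lay above every control library, by the smallest margin in replicate 10, and the log2 change was 0.51 ± 0.22 (SE) with an unadjusted p of 0.0382 and an adjusted p of 0.883 by edgeR. The lamellar body protein LAMP3 stood at 2003, 1318 and 1875 CPM in controls and at 2621, 2207 and 2297 CPM in asthma, again without overlap, with a log2 change of 0.45 ± 0.22 and an adjusted p of 0.883. For the hydrophobic surfactant protein SFTPB the values were 1158, 1209 and 1234 CPM in controls and 1354, 1238 and 2327 CPM in asthma, with a log2 change of 0.45 ± 0.25 and an adjusted p of 0.884. The asthma replicate 10 value of SFTPB exceeded the highest control by a few CPM only, and without asthma replicate 11 the log2 change was 0.09. Thus 3 of the 9 members had every asthma library above every control library, against 6.75% of all genes tested.

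These 3 members were also followed in the larger sub-cluster alone, and markers of other cell types were read in the AT2-like cells. Among the 285 cells of the larger sub-cluster alone, NAPSA stood at 983, 972 and 852 CPM in controls and at 1589, 1080 and 1237 CPM in asthma, and LAMP3 at 1845, 1388 and 1836 CPM and at 2442, 2057 and 2035 CPM, both still without overlap. SFTPB in the same cells stood at 1027, 1186 and 1208 CPM in controls and at 1243, 1205 and 1965 CPM in asthma, with asthma replicate 10 below control replicate 3. The summed level of 10 macrophage markers in AT2-like cells was 63.1, 42.7 and 28.1 CPM in controls and 113, 303 and 114 CPM in asthma, FABP4 being the most abundant of them in asthma replicate 10 (266 CPM), and 2, 6 and 7 of the 10 were at 0 in controls and 1, 2 and 1 in asthma. Of the other marker lists, 3 also separated the groups, 2 of them higher and 1 lower in asthma. The 16 stromal markers summed to 138, 144 and 56.2 CPM in controls and 234, 175 and 187 CPM in asthma, A2M being the most abundant of them in each asthma library, with 5, 9 and 12 of the 16 at 0 in controls and 4, 5 and 3 in asthma. The 12 ciliated markers summed to 67.7, 69.3 and 65.6 CPM in controls and 88.3, 103 and 98.3 CPM in asthma, TSPAN1 being the most abundant in each asthma library, with 7, 9 and 8 of the 12 at 0 in controls and 7, 6 and 6 in asthma. The 12 T and NK markers summed to 21.3, 37.3 and 28.1 CPM in controls and 19.2, 12.8 and 16.2 CPM in asthma, so that every asthma library lay below every control, with CCL5 the most abundant in 5 of the 6 libraries and 4, 6 and 9 of the 12 at 0 in controls and 7, 5 and 4 in asthma. Whether these marker UMIs came from other cell types or from the AT2-like cells themselves was not tested, nor was their part in the members' values.

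The other 6 members overlapped between the groups. ABCA3, the lipid transporter, stood at 350, 301 and 182 CPM in controls and at 329, 367 and 462 CPM in asthma, with a log2 change of 0.42 ± 0.25 (adjusted p = 0.887 by edgeR). SFTA2 stood at 4076, 3042 and 1597 CPM in controls and at 3431, 2695 and 3878 CPM in asthma, with a log2 change of 0.19 ± 0.30, control replicate 3 being the lowest library. SFTPC changed by 0.04 ± 0.33, SFTPD by -0.02 ± 0.24 and SLC34A2 by -0.08 ± 0.21, with an adjusted p of 0.99963 by edgeR in the 3 cases. The 95% interval of the SLC34A2 change ran from -0.54 to 0.38 and that of the SFTPC change from -0.68 to 0.76. Changes within these intervals could not be told from 0 with 3 animals per group.

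PGC had the widest interval. It stood at 10222, 2782 and 823 CPM in controls and at 3854, 1302 and 4363 CPM in asthma, and the log2 change was -0.55 ± 0.65 with a 95% interval from -1.95 to 0.85 (adjusted p = 0.959 by edgeR). The 3 asthma libraries all lay between the lowest and the highest control. Without control replicate 1, the change of PGC was 0.79 instead.

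**Figure D3:**
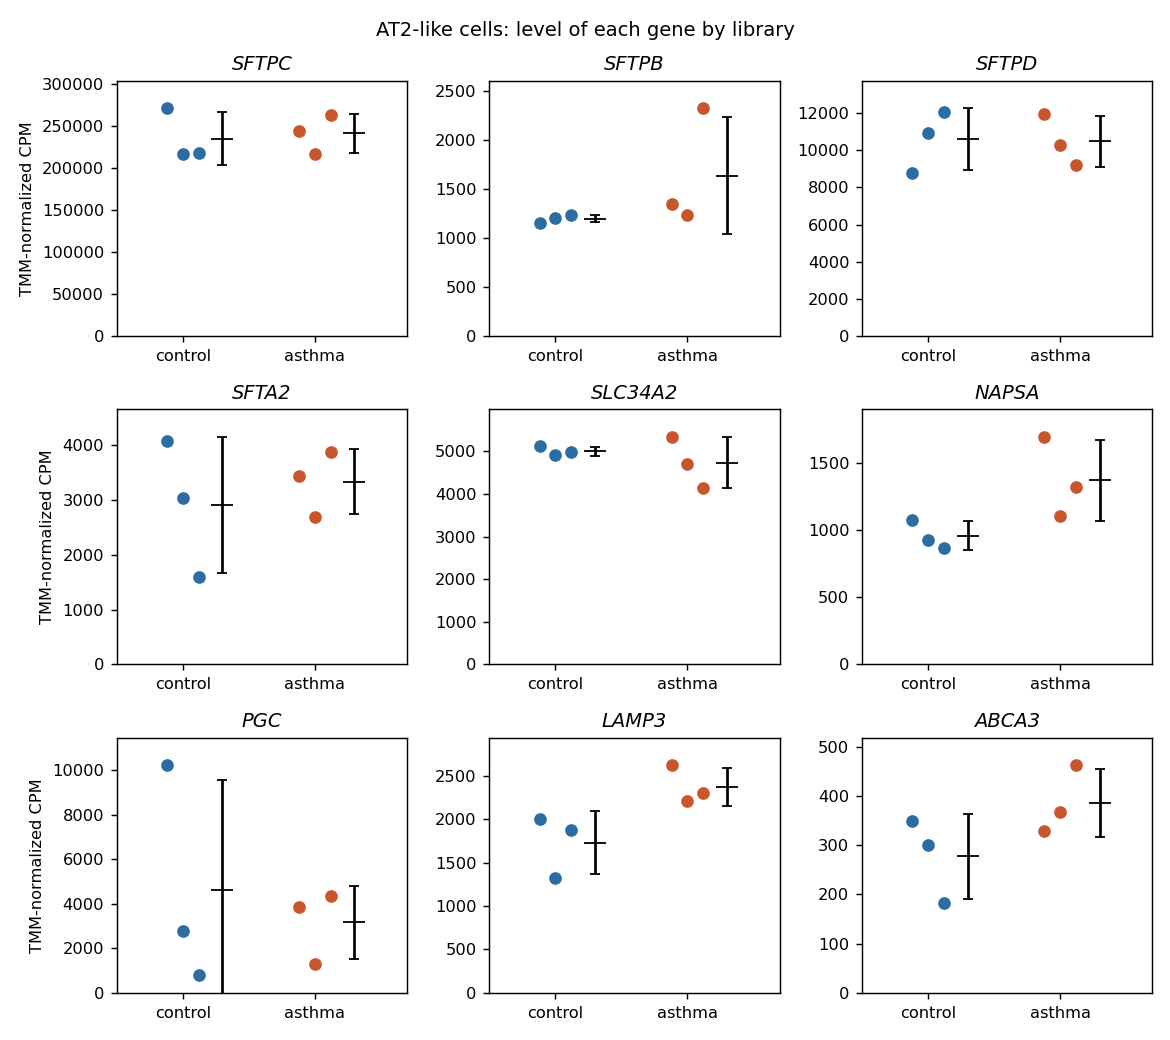
The 9 members in AT2-like cells of each library, 1 panel per gene, in TMM-normalised CPM on linear axes from 0; points are the libraries, from left to right replicates 1, 2 and 3 of the control and 8, 10 and 11 of the asthma group, and bars are the mean and SD of each group, a bar that would pass below 0 being cut at 0. The asthma points of NAPSA, LAMP3 and SFTPB all lie above the control points, the groups of the other 6 members overlap, and none of the 9 differences passed the test.

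Counted over whole libraries, 8 of the 9 members had a positive log2 change (47.8% of all genes did) but none of them passed the test. None of the 9 was called among 14306 genes, against 0.0839% of all genes (12 genes, all higher in asthma), none of the 9 had an unadjusted p under 0.05 (12.9% of all genes) and DESeq2, which called 648 genes, called no member. The log2 changes ran from -0.49 for PGC to 1.25 for SFTPB with a median of 0.82, against -0.02 for all genes, and the adjusted p-values by edgeR from 0.423 to 0.916. ABCA3 had the smallest of them, at 10.1 ± 5.39 CPM in controls and 19.6 ± 7.61 CPM in asthma (SD, n = 3 each), a log2 change of 0.96 ± 0.44 with an unadjusted p of 0.0658 by edgeR. With each library left out in turn, the ABCA3 change lay between 0.656 and 1.497, and only the PGC change turned sign. The size of the members' changes depended on single libraries. Without control replicate 1 they were 2.17 for SFTPB, 2.09 for SFTA2, 2.11 for SFTPC and LAMP3, 2.27 for NAPSA, 1.68 for SLC34A2, 1.61 for SFTPD, 1.497 for ABCA3 and 2.51 for PGC. Without asthma replicate 11 they were 0.44 for SFTPB, 0.19 for SFTA2 and 0.31 for SFTPC, and without control replicate 3 they were 0.23 for SLC34A2, 0.62 for NAPSA, 0.72 for LAMP3 and 0.52 for SFTPD. SFTPC stood at 10356, 2434 and 1194 CPM in control replicates 1, 2 and 3 and at 3972, 7570 and 11993 CPM in asthma replicates 8, 10 and 11, so that control replicate 1 lay among the asthma libraries. For 0 of the 9 members was every asthma library above every control library, against 10.1% of all genes. In such sums fewer cells of a type and less RNA per cell cannot be told apart.

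The number of AT2-like cells moved with these sums. AT2-like cells made up 2.05%, 0.719% and 0.282% of the cells in controls and 1.02%, 1.82% and 2.77% in asthma, with means of 1.02% ± 0.922 and 1.87% ± 0.880 (SD, n = 3 each). The difference of 0.852 percentage points had p = 0.3 in an exact permutation test (two-sided, all 20 ways to assign the libraries), which cannot go below 0.1. With each library left out in turn, this difference lay between 0.400 and 1.37 percentage points. Epithelial-like cells made up 3.34%, 1% and 3.49% of the cells in controls and 4.18%, 4.004% and 6.09% in asthma. Each asthma library exceeded each control library, and the difference of 2.15 percentage points reached the smallest possible p of 0.1 in the same exact test, also for n = 3 against 3.

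Within all epithelial-like cells, 0 of the 9 members were called among 9030 genes (0% of all genes), with log2 changes from -1.02 for PGC to 0.53 for SFTPB and adjusted p-values by edgeR from 0.829 to 0.999. None of the members had an unadjusted p under 0.05, against 7.25% of all genes (655 genes), and DESeq2 called 5 genes, no member among them. SFTPC stood at 197900, 164700 and 20399 CPM in controls and at 84946, 125410 and 164650 CPM in asthma, the lowest library being control replicate 3. Basal-like cells were 69.1% of the epithelial-like cells of that library and 6.90% and 9.38% of those of the other two controls, while its AT2-like cells alone held 213161 CPM of SFTPC. AT1-like cells were 11.7%, 15.6% and 3.68% of the epithelial-like cells in controls and 62.4%, 21.6% and 39.0% in asthma.

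Other genes of the surfactant pathway were followed in AT2-like cells from fixed lists, and none of them was called. Of 20 genes of surfactant lipid synthesis 13 were tested, 6 of them with a positive log2 change (51.7% of all genes), with a median of -0.12 against 0.02 for all genes. LPCAT1 stood at 840 ± 296 CPM in controls and 1035 ± 336 CPM in asthma and GPAM, an enzyme of glycerolipid synthesis, at 186 ± 88.4 and 175 ± 48.5 CPM. Of 18 genes of protein processing, lamellar bodies and secretion 10 were tested, with a median of 0.05. CTSH stood at 1875 ± 687 and 1630 ± 612 CPM and the lysosomal membrane protein CD63 at 1265 ± 125 and 1309 ± 156 CPM (SD, n = 3 each).

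Of 12 transcription factors of surfactant genes 8 were tested and 7 had a positive log2 change, with a median of 0.24. NKX2-1, the lineage factor of the lung epithelium, stood at 337 ± 59.8 CPM in controls and 392 ± 21.6 CPM in asthma, a log2 change of 0.25 with an adjusted p of 0.926, and FOXA2 at 143 ± 24.8 and 160 ± 25.6 CPM. Of 16 immediate-early and heat shock genes, which respond to tissue handling among other things, 12 were tested, with a median of -0.54, and 2 of them (IER2 and DNAJB1) had an unadjusted p under 0.05, against 5.03% of all genes. FOS stood at 1342 ± 928 CPM in controls and 767 ± 357 CPM in asthma and HSP90AA1 at 754 ± 159 and 894 ± 8.40 CPM. In the other comparisons 13 of these genes were tested and none was called. Their median was -0.41 in whole libraries, -1.06 in epithelial-like, -0.23 in T and NK-like and -0.31 in macrophage-like cells, with 3, 3, 3 and 0 genes at an unadjusted p under 0.05, against 12.9%, 7.25%, 6.87% and 5.17% of all genes tested in the same 4 comparisons. The part of this immediate-early difference in the members' values was not tested in any of the 5 comparisons.

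Outside the epithelium, SFTPC was counted in immune and stromal classes alike, and its level moved with the library. T and NK-like cells, which do not make surfactant, held 275, 66.0 and 14.9 CPM of SFTPC in control replicates 1, 2 and 3 and 73.2, 92.6 and 565 CPM in asthma replicates 8, 10 and 11, a 37.9-fold range. The same 6 libraries had 0.928%, 0.226%, 0.123%, 0.430%, 0.759% and 1.28% of all their cells' UMIs in SFTPC, a 10.4-fold range, and both series put the libraries in the same order, which was also that of the number of AT2-like cells. Stromal-like cells held 157, 69.3 and 13.8 CPM in controls and 74.6, 97.2 and 630 CPM in asthma, again lowest in control replicate 3 and highest in asthma replicate 11. Per cell these were few molecules: the mean over T and NK-like cells was 1.004, 0.318 and 0.0638 UMIs in controls and 0.269, 0.320 and 2.02 UMIs in asthma.

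**Figure D4:**
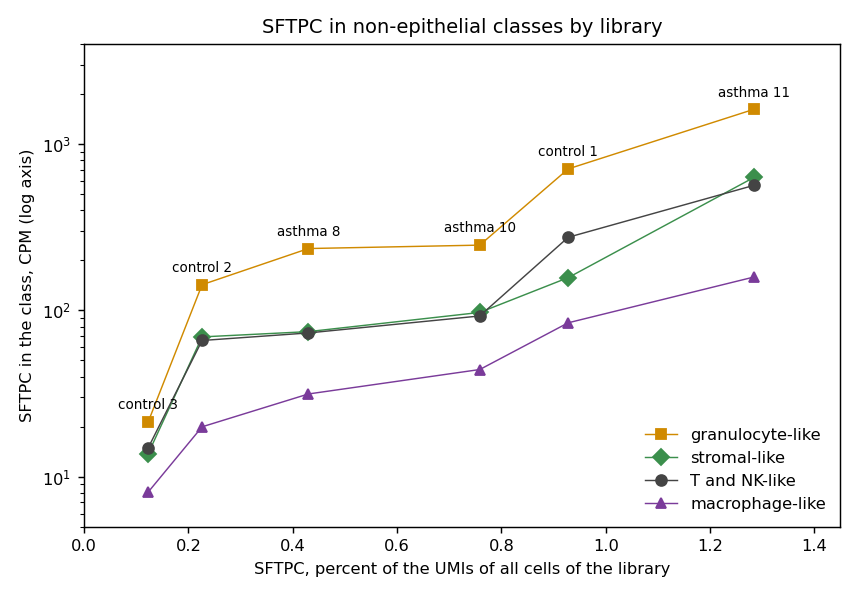
SFTPC level in T and NK-like, macrophage-like, stromal-like and granulocyte-like cells (vertical, CPM, log axis) against the percent of all cell UMIs of the library that are SFTPC (horizontal); each point is a class in 1 of the 6 libraries. In each of these classes control replicate 3, with 0.123% of its UMIs in SFTPC, is the lowest and asthma replicate 11, with 1.28%, the highest.

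The share of cells with an SFTPC UMI therefore could not be read as expression. T and NK-like cells with at least 1 SFTPC UMI were 57.8%, 25.2% and 6.32% in controls and 21.5%, 25.8% and 82.1% in asthma, at a median depth of 3661 UMIs over all of them. After each cell was thinned to 1500 UMIs, which left out 458 of 10179 cells, these shares were 31.7%, 9.97% and 2.38% in controls and 9.82%, 13.04% and 54.3% in asthma. Macrophage-like cells, at a median of 18461 UMIs, had an SFTPC UMI in 73.5%, 38.2% and 13.8% of control cells and in 46.8%, 52.2% and 88.4% of asthma cells. Thinned to the same depth (26 of 3327 cells left out), they came to 12.4%, 3.21% and 1.40% in controls and 5.81%, 7.98% and 28.0% in asthma, below the T and NK-like cells of the same library in all 6 libraries. SFTPC UMIs were present in 100% of AT2-like cells, at a median depth of 10867 UMIs.

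The members in T and NK-like cells were set against their ratio to SFTPC in the AT2-like cells of the same library. The comparison describes ratios of counts, and whether the UMIs came from free RNA, mixed droplets or the cells themselves was not tested. At that ratio 223 SFTPD UMIs were to be found and 226 were counted, and the figures were 37.2 and 37 for SFTPB, 109 and 114 for SLC34A2, 126 and 133 for PGC, 27.8 and 32 for NAPSA, 48.9 and 44 for LAMP3 and 83.3 and 102 for SFTA2. For these 7 members the 95% Poisson interval of the observed count included the AT2-like ratio. By library, PGC came to 37.8, 12.9 and 3.78 UMIs per 1000 SFTPC UMIs in AT2-like cells of controls and 15.8, 6.03 and 16.6 in those of asthma. In T and NK-like cells it came to 38.7, 16.7 and 0 in controls and 23.4, 1.61 and 17.8 in asthma. Control replicate 1 was the highest in both classes, and control replicate 3 and asthma replicate 10, the lowest in both, held 0 and 1 PGC UMIs in T and NK-like cells, while the order of the others differed. Such intervals cover counting error only.

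ABCA3 departed from the ratio. In T and NK-like cells 99 ABCA3 UMIs were counted against 8.81 at the AT2-like ratio (11.2-fold, 95% interval 9.13 to 13.7), in macrophage-like cells 260 against 5.29 (49.1-fold, 43.3 to 55.5), in stromal-like cells 125 against 4.12 (30.3-fold, 25.2 to 36.1) and in mesothelial-like cells 117 against 3.835 (30.5-fold, 25.2 to 36.6). The UMIs were spread over 96 T and NK-like, 239 macrophage-like, 120 stromal-like and 96 mesothelial-like cells, with at most 8 in a cell. Single libraries moved the size of these ratios but not their side of 1. In macrophage-like cells asthma replicate 10 held 130 of the 260 UMIs, and without it the ratio was 30.8. Without asthma replicate 11 the ratio was 112 in stromal-like cells, and without asthma replicate 8 it was 135 in mesothelial-like cells. Across all libraries left out in turn it was 9.46 to 16.4 in T and NK-like cells. The ABCA3 level in these classes was 2.66 ± 1.13 CPM in T and NK-like, 3.91 ± 2.79 CPM in macrophage-like, 11.8 ± 4.16 CPM in stromal-like and 13.8 ± 7.34 CPM in mesothelial-like cells (SD, n = 6), against 322 CPM in AT2-like cells. Plasma-like cells held 3 ABCA3 UMIs, all of them among the 8 cells of asthma replicate 8, and none in the other 5 libraries. SLC34A2 departed in mesothelial-like cells, with 208 UMIs against 60.5 (3.44-fold, 2.99 to 3.94) and a level of 20.7 ± 15.2 CPM. Asthma replicate 8 held 146 of these UMIs, and without it the ratio was 12.6. A single cell held 68 of the 208, and 86 of the 620 mesothelial-like cells had an SLC34A2 UMI. LAMP3 stood at 54 UMIs against 29.6 in mesothelial-like cells, but only 4 cells held them, 1 of these had 30, and 53 of the 54 UMIs came from asthma replicate 8. In dendritic-like cells LAMP3 stood at 19 UMIs against 1.37, and all 19 lay in 1 of the 299 cells, in control replicate 2. Neither value describes its class. SFTPD stood at 47 UMIs against 2.33 in basal-like cells (20.1-fold, 14.8 to 26.8), which held 58 SFTPC UMIs in all, and was counted in 29 of the 156 cells and in each of the 6 libraries.

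**Figure D5:**
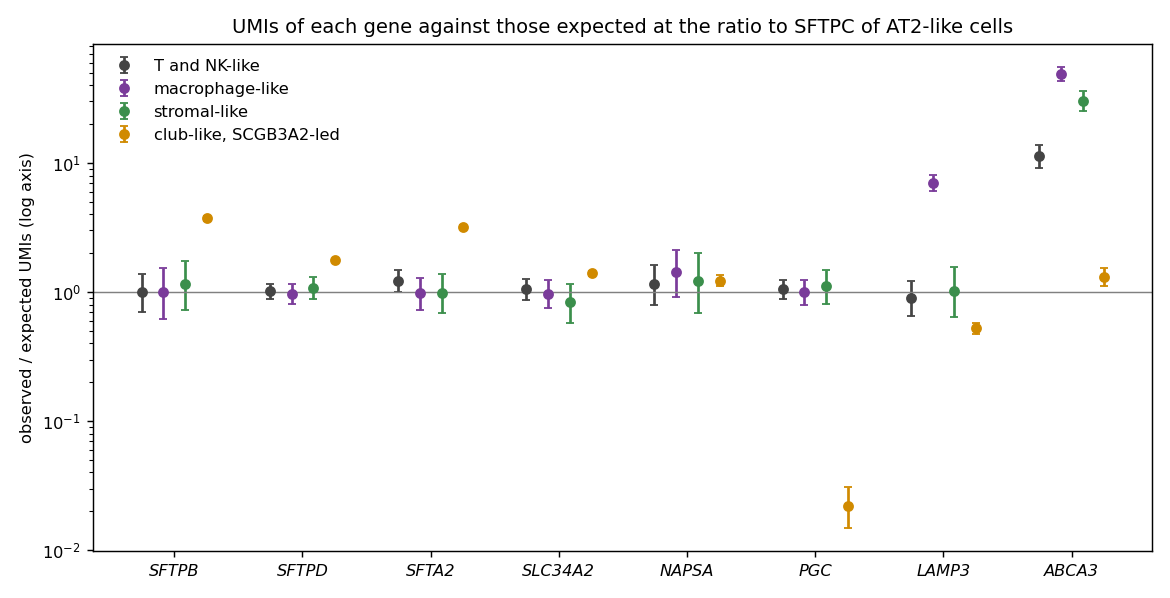
Observed UMIs of 8 members divided by the UMIs that the ratio to SFTPC in AT2-like cells of the same libraries would give (vertical, log axis), by class; points are the sums over libraries and bars their 95% Poisson intervals, which cover counting error only. In T and NK-like cells the intervals of 7 members include 1 (SFTA2 the highest at 1.22, LAMP3 the lowest at 0.899) and ABCA3 lies at 11.2, in macrophage-like cells LAMP3 lies at 7.01 and ABCA3 at 49.1, and in SCGB3A2-led club-like cells PGC lies at 0.0219.

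LAMP3, known outside the lung as DC-LAMP, a marker of mature dendritic cells, was also counted outside the epithelium. An unnamed sub-cluster of 35 cells led by UBD, FSCN1 and CCL22 held LAMP3 UMIs in every one of its cells and stood at 2000 CPM over all of them. By library the level was 1501, 1882 and 2350 CPM in controls and 2393, 1680 and 1943 CPM in asthma, from between 3 and 8 cells each. That is within the range of AT2-like cells, yet these cells held between 2 and 14 SFTPC UMIs per library and 1 ABCA3 UMI in all. They held 824 of the 866 LAMP3 UMIs of all unnamed cells, which were 8.09% of the LAMP3 UMIs of the cells. A further 101 cells led by CXCL11 and IDO1, left out of the macrophage-like class because of dendritic markers, stood at 102 CPM with LAMP3 in 46.5% of cells.

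In macrophage-like cells LAMP3 was at 7.01 times the AT2-like ratio (213 UMIs against 30.4). Asthma replicate 10 held 126 of the 213 UMIs, and without it the ratio was 3.63. In these cells SFTPB, SFTPD, SFTA2, SLC34A2, NAPSA and PGC lay within their intervals of the AT2-like ratio. NAPSA stood at 65.4 CPM (26 UMIs, in 37.04% of cells) in 54 unnamed cells led by GZMB and JCHAIN, with LILRA4, a marker of plasmacytoid dendritic cells, among their leading genes.

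Between the groups, 6 members had enough UMIs for a test in T and NK-like cells (SFTPC, SFTPD, SFTA2, SLC34A2, PGC and ABCA3) and none was called among 10464 genes (0% of all genes, with 719 genes or 6.87% and no member at an unadjusted p under 0.05, and 80 genes by DESeq2). The SFTPC change was 0.98 ± 1.04 on the log2 scale with overlapping groups (adjusted p = 0.927 by edgeR), and -0.59 without asthma replicate 11. The macrophage-like class drew on a cluster of 1771 cells led by FABP4, CHIT1 and MARCO and on another of 1956 led by CCL17, with FOLR2 among its leading genes. The part of this mix in the levels of the class was not tested. In macrophage-like cells 4 members were tested (SFTPC, SFTPD, LAMP3 and ABCA3) and none was called among 10431 genes (0% of all genes). At an unadjusted p under 0.05 by edgeR there were 539 genes or 5.17%, ABCA3 and LAMP3 among them, and DESeq2 called 28 genes. ABCA3 stood at 1.56, 2.83 and 2.20 CPM in controls and at 4.65, 9.11 and 2.98 CPM in asthma. It was the only one of the 4 whose asthma libraries all lay above the controls, against 5.59% of all genes, with a log2 change of 1.41 ± 0.47, an unadjusted p of 0.0182 and an adjusted p of 0.894 by edgeR.

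LAMP3 in macrophage-like cells stood at 1.85, 1.42 and 0.942 CPM in controls and at 2.80, 8.83 and 1.32 CPM in asthma, with overlap, a log2 change of 1.61 ± 0.68, an unadjusted p of 0.0465 and the same adjusted p of 0.894 by edgeR. Of 16 genes of surfactant clearance, 13 were tested in these cells, none was called and their median log2 change was 0.03 against 0.00 for all genes. Among the 13, 2 (CD36 and MRC1) had an unadjusted p under 0.05 by edgeR, against 5.17% of all genes tested. MRC1, a mannose receptor, stood at 1792 ± 222 CPM in controls and 1341 ± 192 CPM in asthma and FABP4, a fatty acid binding protein of alveolar macrophages, at 1195 ± 386 and 1786 ± 1261 CPM (SD, n = 3 each), with adjusted p of 0.894 and 0.916 by edgeR.

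The genes whose pattern over classes was most like that of the members were sought among all other genes with a symbol, over 73 sums of a class and a library in 14 classes. The mean of 7 members (LAMP3 and ABCA3 apart) was followed most closely by ZNF385B (Pearson's r = 0.959), PLA2G1B (0.958), MRAP2 (0.955), SLC13A2 (0.935), UNC5CL (0.930), BSPRY (0.924), C5 (0.923) and LGI3 (0.922), on log2 of CPM with 10 added. The members themselves ranged from 0.868 for PGC to 0.987 for NAPSA against the same mean. All of them but LAMP3 and ABCA3 are part of that mean, which raises their values. LAMP3 was followed by LGI3 (0.954), MRAP2 (0.935) and ZNF385B (0.931), and ABCA3 by PLA2G1B (0.939), HPN (0.929) and ABCD3 (0.928). The sums share their libraries and cells, and ZNF385B and PLA2G1B are also among the markers that named the AT2-like cells, so the values are a description.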

How the data were processed

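The authors made droplet-based 3′ libraries of dissociated lung, 1 per monkey, mapped the reads to the macFas6 build by Cell Ranger and deposited raw UMI counts, without normalization, for each barcode. The submitters' processing notes name Cell Ranger 2.1.1, the matrix headers 4.0.0 and the study's methods another version, so the version is uncertain. Of the genes listed, 21095 have a symbol and 7528 have none. The authors' cell annotation and their own comparisons were not used here.

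A barcode was kept as a cell when it had over 500 genes but under 5000, a minimum of 500 UMIs, and no more than 25% mitochondrial UMIs over 37 genes (13 of them with a symbol). After scaling each cell to 10000 and taking logs, 2000 variable genes, none of them a member, gave 10 principal components and a graph over 20 neighbours, on which Leiden clustering was run (resolution 0.8; Python 3.11.15, scanpy 1.11.5, leidenalg 0.10.2). A class name needed at least 3 markers with a log2 fold of at least 1 in at least 10% of cells, and sub-clusters with at least 4 higher markers of another class could be set aside as mixed. Scrublet's own threshold called 10 doublets, so doublets were kept and the 793 highest-scored cells were removed as an alternative.

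UMI counts were summed per class and library with at least 10 cells of the class. Asthma was compared with control by edgeR 4.0.16 in R 4.3.3 (quasi-likelihood test, TMM normalization, filterByExpr), with a call at a Benjamini-Hochberg adjusted p under 0.05 over all genes tested and an absolute log2 fold change over 0.25. The script was tested on simulated data with known changes. Intervals of 95% use the degrees of freedom of that test. Shares were compared by an exact permutation test, two-sided, with 20 assignments. Levels across classes, ratios to SFTPC and correlations between cells were not tested, because the classes come from the same cells. Depths of 29014556 to 41489879 UMIs per library set the precision, and with 11 to 112 AT2-like cells per library the AT2-like sums of control replicates 2 and 3 are the thinnest.

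Alternatives were a mitochondrial limit of 10%, a gene minimum of 200 without an upper limit, removal of high doublet scores, a resolution of 1.6, members allowed among the variable genes, DESeq2 1.42.0, no filter on low counts, shares among cells other than T and NK-like ones, and each library left out. The mitochondrial share from 13 genes, SFTPC left out before normalization, and ratios to SFTPC with each library left out were added after seeing the data, as were the thresholds for names and for mixed sub-clusters. The members, lists and markers were chosen with earlier results of these data known. Genes named in the text are all members, of each list the called genes and the 2 with the highest mean level in AT2-like cells (macrophage-like cells for clearance), called genes of AT2-like and epithelial-like cells, the 8 genes most like 7 of the members over classes and the 3 most like LAMP3 and ABCA3 each, at 20 CPM or more in AT2-like cells. Markers of classes and leading genes of sub-clusters are named besides. ATP11A, CD36, IER2 and DNAJB1 were chosen outside this rule, after their values were seen.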

Additional observations from a re-analysis of the deposited data

How the results depend on the processing

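No member was called in any of the 5 comparisons under any alternative, and adjusted p-values of the members in AT2-like cells lay between 0.764 and 0.99996 by every tool and setting. Of the 361 AT2-like cells, 69.8% (mitochondrial maximum of 10%) to 99.7% (mitochondrial share from 13 genes) were found again. The first of these settings gave 259 AT2-like cells and the second 434, of which 82.9% were among the 361. Genes called in AT2-like cells numbered 1, but 3 at a mitochondrial maximum of 10%, 73 with no filter on low counts and between 0 and 6 when a library was left out. In whole libraries they numbered 12, but 7 with at least 200 genes, 24 with the mitochondrial share from 13 genes, 45 with no filter, 648 by DESeq2 and between 0 and 11 when a library was left out. T and NK-like cells had 1 call at a mitochondrial maximum of 10%, 80 by DESeq2 and 60 with no filter, macrophage-like cells 28 and 1, and epithelial-like cells 5 and 2, in place of 0, and with a library left out 0 to 3, 0 to 2 and 0. The cause of these differences was not tested.

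Several changes near 0 turned sign, while that of SLC34A2 in AT2-like cells stayed between -0.18 and -0.02 without single libraries. SFTPC in epithelial-like cells was at 0.060 (mitochondrial maximum of 10%), 0.27 (at least 200 genes) and 0.0018 (no filter), and between -0.54 and 0.45 without single libraries. SFTPD in AT2-like cells was at 0.018 (mitochondrial maximum of 10%), 0.0086 (mitochondrial share from 13 genes) and 0.057 (no filter), and between -0.15 and 0.086 without single libraries. Leaving out libraries gave log2 changes in AT2-like cells of -0.050 to 0.13 for SFTPC, -0.10 to 0.50 for SFTA2, -1.06 to 0.79 for PGC, 0.09 to 0.61 for SFTPB, 0.32 to 0.64 for NAPSA, 0.29 to 0.56 for LAMP3 and 0.23 to 0.63 for ABCA3. It gave -1.34 to 2.51 for PGC in whole libraries (2.51 without control replicate 1), and for SFTPC -0.59 to 2.59 in T and NK-like and -0.10 to 2.30 in macrophage-like cells, negative only without asthma replicate 11. The difference in the epithelial-like share stayed between 1.25 and 2.84 percentage points and that in the AT2-like share between 0.400 and 1.37. No paired analysis was possible because the groups share no replicate numbers. Depth limits the members other than SFTPC outside the epithelium, where single libraries hold few UMIs. SFTPB and NAPSA had the fewest, 75 and 70 UMIs in the named immune-like classes over all libraries.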

Other observations

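Barcodes that failed the filters also held surfactant RNA. The 7753 barcodes with a mitochondrial share over 25% held 40145 SFTPC UMIs (3245 CPM) and 1157 PGC UMIs (93.5 CPM), the 2449 with 500 genes or fewer held 3289 SFTPC UMIs (1896 CPM), and the 696 with 5000 genes or more held 31963 (1098 CPM). ABCA3 stood at 22.9 CPM, 8.65 CPM and 10.1 CPM in the same 3 sets.

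A gene of the list of lamellar body and secretion genes, ATP11A, a lipid flippase, had an unadjusted p of 0.00176 and an adjusted p of 0.599 in AT2-like cells (edgeR, Benjamini-Hochberg). It stood at 39.3 ± 25.1 CPM in controls and 93.5 ± 14.6 CPM in asthma (SD, n = 3 each), a log2 change of 1.30 ± 0.33, and was chosen after its values were seen. The macrophage gene FABP4 in the same AT2-like cells stood at 6.46 ± 7.18 CPM in controls and 118 ± 132 CPM in asthma, an adjusted p of 0.599 as well. In macrophage-like cells CD36, a lipid receptor, stood at 59.5 ± 11.7 CPM in controls and 34.5 ± 7.58 CPM in asthma, with every asthma library below every control and an adjusted p of 0.849 by edgeR, and was also chosen after its values were seen.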
